A study of Mus musculus with 6 samples.

Results

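The 4 genes described here encode the chains from which the receptors for IL-2 and IL-15 are assembled. They are Il2ra, Il2rb, Il2rg and Il15ra, taken by name because IL10/2-Trikine, the molecule under test, engages the IL-2 receptor beta chain, and they are 4 of 34187 gene features in the count matrices. The level of each was read in 12 cell clusters annotated by the authors and in 3 treatment libraries, 1 for each group of mice. C57BL/6 mice carried subcutaneous tumors of the transplanted pancreatic ductal adenocarcinoma line 6694c2vTRP1 and were injected intraperitoneally with PBS, with mono-IL10 at 26 µg per mouse, or with IL10/2-Trikine at 30.6 µg per mouse. Each group received 2 doses on alternate days from day 8, and tumors were collected on day 14. CD45+ cells were isolated with beads, marked with 1 of 5 hashtag antibodies per mouse and pooled by treatment, so that a treatment and its library cannot be told apart and p-values measure the spread between mice of these 3 libraries.

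The beta chain, Il2rb, and the common gamma chain, Il2rg, form the signalling receptor shared by IL-2 and IL-15. Il2ra encodes the alpha chain, CD25, which raises the affinity for IL-2 and marks regulatory T cells, and Il15ra encodes the chain with which one cell holds IL-15 and presents it to the beta and gamma chains of a neighbouring T or NK cell. Mono-IL10 is a monomeric form of IL-10 that binds the IL-10 receptor, and IL10/2-Trikine links it to a signalling-dead IL-2 variant that binds the beta chain but not the gamma chain.

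The annotation used here covered 2084 cells, of which 1383 carried a mouse: 348 of 516 in the PBS library, 635 of 843 in the mono-IL10 library and 400 of 725 in the IL10/2-Trikine library. Values per mouse for annotated cells rest on this part, which was smallest with Trikine as a share of its library. The median number of UMIs (unique molecular identifiers, each standing for a captured RNA molecule) per annotated cell was 2780 with PBS, 3959 with mono-IL10 and 2635 with IL10/2-Trikine. Between 408 and 700 barcodes were shared by any pair of libraries, at most 1.58% of the smaller library, and 0 of them were annotated cells. Cell types outside the annotation were named "-like" from marker genes after clustering without the 4 receptor genes, and 41196 such barcodes of this CD45+ isolation carried tumor epithelial markers. The annotated NK cluster had 5.996 CPM of Cd3e (UMIs of a gene scaled to a total of 1000000) against 484 to 721 CPM in act_CD4T, naive_CD4T, naive_CD8T and Treg, while the cluster labelled naive_T had 211 CPM of Cd3e and Cycling_T held 74.5 CPM of the NK receptor gene Ncr1.

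The receptor chains had distinct places among the clusters. Il2rb, which lets NK cells respond to IL-15, was highest in the NK cluster, at 1345 CPM (95% Poisson interval 1304 to 1387, 795 cells). It was next in gdT/NKT at 1077 CPM (998 to 1162, 206 cells), Cycling_NK at 961 CPM (858 to 1074, 68 cells) and Cycling_T at 770 CPM (730 to 813, 349 cells). This order is over all libraries and differed between them, since Cycling_T had 723 CPM with PBS (55 cells), 537 CPM with mono-IL10 (120 cells) and 1125 CPM with Trikine (174 cells), above the 922 CPM of Cycling_NK in the last and below the 596 CPM of Treg in the second. Of these 4 clusters, the intervals of gdT/NKT and Cycling_NK overlapped and the other neighbours did not. Below them came Treg at 609 CPM, Th17/ILCs at 549 CPM, ISG+CD8T at 532 CPM, act_CD4T at 455 CPM, naive_CD4T at 435 CPM, Cycling_Treg at 392 CPM, naive_CD8T at 362 CPM and naive_T at 307 CPM, an order in which every pair of neighbours had overlapping intervals. Poisson intervals and limits cover counting error only, and because the clusters were made from these same cells the levels are a description without a test.

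Il2ra followed the regulatory clusters. Treg had 2058 CPM (1908 to 2218, 127 cells) and Cycling_Treg 1759 CPM (1584 to 1948, 32 cells), with intervals that overlapped. The next clusters were act_CD4T at 338 CPM (296 to 383) and Th17/ILCs at 311 CPM (181 to 498), whose intervals overlapped, and the other 8 clusters lay between 12.1 CPM in naive_CD8T and 71.6 CPM in Cycling_T. The NK cluster had 54.3 CPM of Il2ra. At least 1 UMI of Il2ra was found in 92.9% of Treg cells, 100% of Cycling_Treg cells and 42.4% of act_CD4T cells, against 0.546% of tumor epithelial-like cells, which had medians of 8487 to 28516 UMIs per library.

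Il2rg was the most evenly spread chain over the 12 clusters, from 134 CPM in naive_T (54.0 to 277, 25 cells) to 492.97 CPM in ISG+CD8T (319 to 728, 16 cells). Treg had 403 CPM (338 to 477), NK had 326 CPM (306 to 347) and Cycling_T had 221 CPM (199 to 244), with the other 7 clusters between 201 CPM in Cycling_Treg and 328 CPM in act_CD4T. Outside the annotation the gene was also read in mast or basophil-like cells at 105 CPM, endothelial-like cells at 87.9 CPM, mature dendritic-like cells at 86.8 CPM and macrophage or monocyte-like cells at 80.4 CPM, against 3.46 CPM in tumor epithelial-like cells. Il15ra was the sparsest of the chains. Its highest level was in mature dendritic-like cells, at 73.8 CPM (64.3 to 84.4), and among annotated clusters Cycling_Treg had 52.6 CPM (26.2 to 94.1) and Treg 44.7 CPM (25.0 to 73.8). The NK cluster was at 12.0 CPM of Il15ra, and a UMI of the gene was found in 30.02% of mature dendritic-like cells and 28.1% of Cycling_Treg cells, against 4.12% of tumor epithelial-like cells. Th17/ILCs had 0 UMIs of Il15ra in 21 cells, with an upper limit of 67.5 CPM, and the other 9 annotated clusters lay between 1.58 CPM in gdT/NKT and 39.4 CPM in ISG+CD8T.

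**Figure D1:**
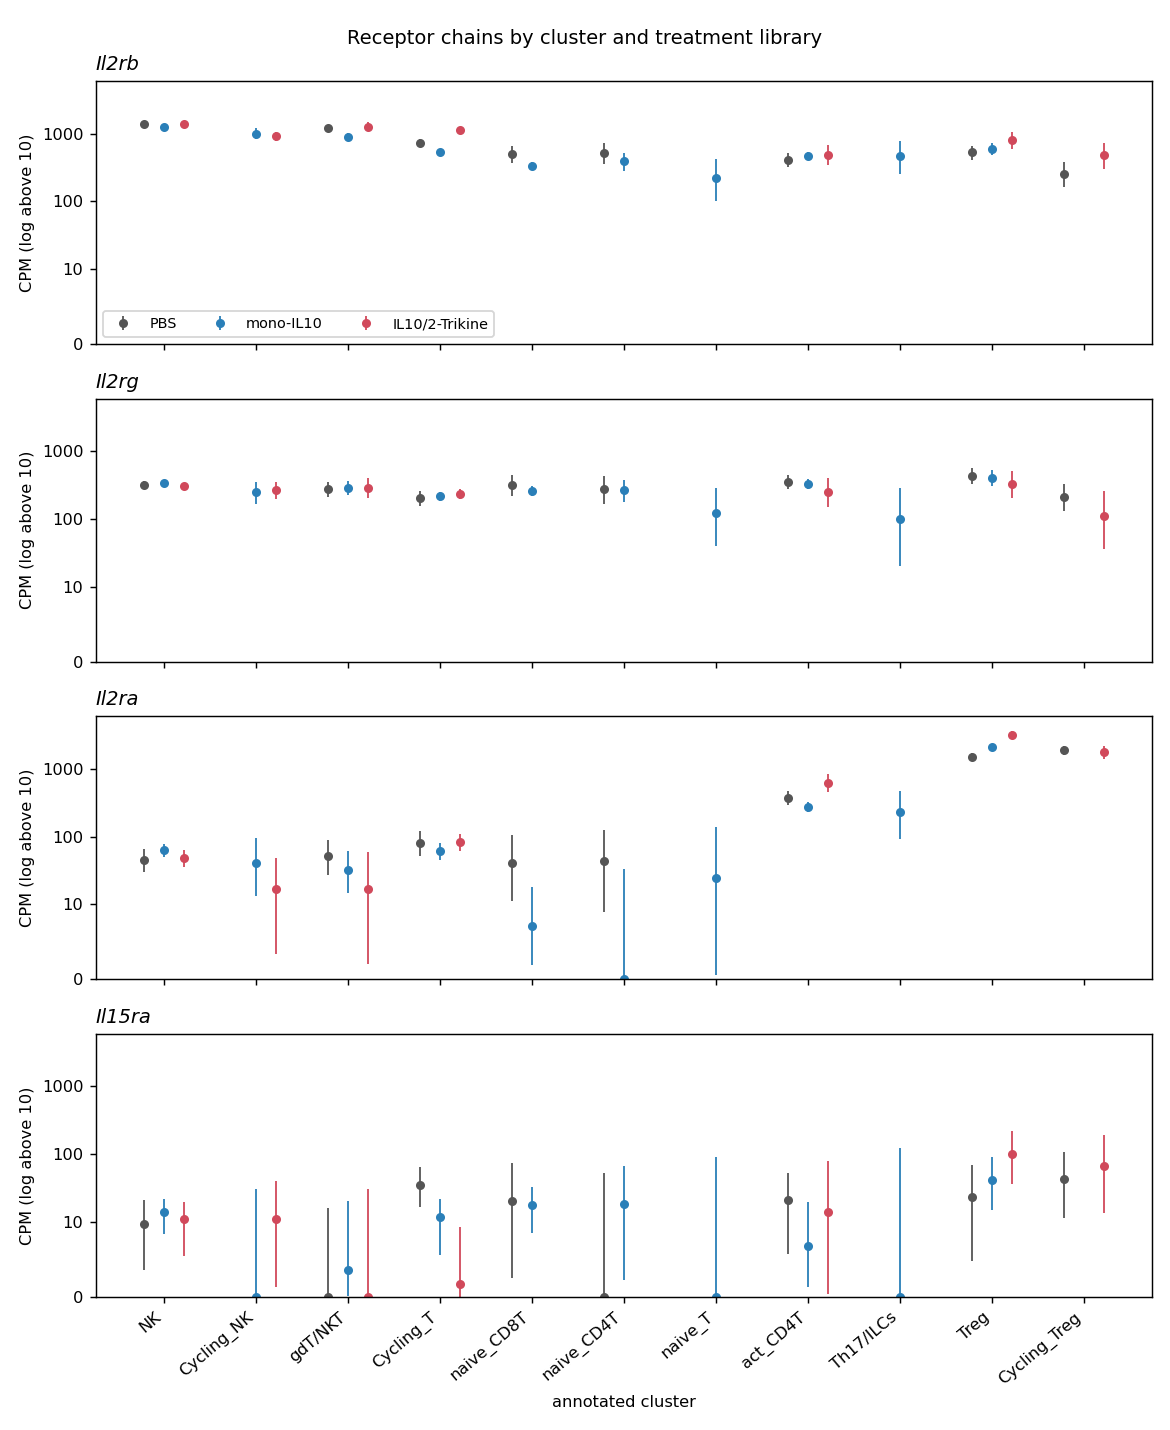
CPM (linear below 10, log above) of the 4 receptor chains in each annotated cluster with at least 10 cells in a library, with points for the PBS, mono-IL10 and IL10/2-Trikine libraries and bars for 95% Poisson intervals. Il2rb is highest in NK (1345 CPM over all libraries), Il2ra in Treg (2058 CPM), and Il2rg varies least between clusters.

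The genes whose levels followed each chain most closely over the 12 clusters are given as a description, with Pearson's r of log2(CPM + 10) over all 6261 genes that reached 50 CPM in some cluster, the clusters differing in depth and in number of cells. For Il2rb they were Klrb1a (r = 0.936), Hhex (0.928), Napsa (0.919), Ncr1 (0.914) and Pxn (0.895). For Il2ra the closest were Myo1g, Havcr2, Areg, Bmyc and H1f0, with r between 0.933 and 0.954. Il2rg was closest to Dlgap4, Cd37, Ezh1, Tspo and Zfp263 (0.898 to 0.927), and Il15ra to Ccng1, Glipr1, Tmbim6, Snx2 and Cd80 (0.867 to 0.917).

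The upstream sequences of Il2ra, the chain with the sharpest cluster pattern, and of Il2rg, the flattest, are printed to set their bases side by side. Both are the 250 bases before the RefSeq transcript start in GRCm38.p6, read 5′ to 3′ on the gene's strand, with GGAA or its reverse complement TTCC, the core letters of the ETS factor motif, in capitals.
Il2ra, chr2:11642542-11642791, plus strand: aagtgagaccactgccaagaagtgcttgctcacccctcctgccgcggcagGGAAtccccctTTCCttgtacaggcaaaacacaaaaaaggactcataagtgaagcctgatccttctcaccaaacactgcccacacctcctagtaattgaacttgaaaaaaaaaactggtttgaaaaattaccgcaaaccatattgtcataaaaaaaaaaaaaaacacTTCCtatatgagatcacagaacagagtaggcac
Il2rg, chrX:101268256-101268505, minus strand: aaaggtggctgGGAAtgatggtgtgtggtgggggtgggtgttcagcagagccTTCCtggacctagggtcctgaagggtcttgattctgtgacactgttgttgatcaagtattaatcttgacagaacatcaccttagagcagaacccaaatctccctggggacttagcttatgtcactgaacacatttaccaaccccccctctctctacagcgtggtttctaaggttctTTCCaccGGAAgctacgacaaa
The Il2ra window held 3 matches and the Il2rg window 4, while the 2 windows of Il15ra, at chr2:11705043-11705292 and chr2:11705462-11705711, held 9 and 3. At least 1 GGAA match was found in 93.4% of 32851 windows of the same length. The palindrome TTCNNNGAA, the letters bound by STAT dimers, was found in 7.02% of all windows and in 0 of these 4. A match is a description of letters and not a binding site, and 3 of the 4 members had an entry in the RefSeq promoter table.

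The first comparison asked whether treatment moved the chains in all annotated T and NK cells, summed per mouse (35 to 215 cells and 124258 to 995020 UMIs a mouse). Il2rb rose with IL10/2-Trikine against both other groups. It measured 770, 1086, 737, 830 and 875 CPM in the 5 PBS mice, 716, 809, 798, 815 and 793 CPM in the 5 mono-IL10 mice, and 978, 1113, 1199, 1157 and 1219 CPM in the 5 IL10/2-Trikine mice. All 5 Trikine mice lay above every mono-IL10 mouse, and PBS mouse 2 was the only PBS mouse above the lowest Trikine mouse. The fold was 1.33 against PBS (log2 change 0.42 ± 0.10 SE, adjusted p = 0.0114) and 1.40 against mono-IL10 (0.49 ± 0.10, adjusted p = 0.00289) by edgeR's quasi-likelihood test with Benjamini-Hochberg adjustment over all genes tested. Mono-IL10 against PBS gave −0.07 for Il2rb (edgeR adjusted p = 0.817).

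Il2rb was thereby the 1 chain of the 3 tested that passed in each Trikine comparison, beside 9.49% of all genes called against PBS, 8.84% against mono-IL10 and 1.11% for mono-IL10 against PBS, where 0 of the 3 passed. Il2ra was tested at −0.38, 0.48 and −0.86 ± 0.29 in those comparisons (edgeR adjusted p = 0.492, 0.352 and 0.145) and Il2rg at −0.28, −0.25 and −0.02, with adjusted p from 0.254 upwards in the first pair. Il15ra, at a mean of 13.8 to 18.4 CPM per group, was below the count filter. In a sum over clusters, a change in the make-up of the cells and a change of RNA per cell cannot be told apart, so the clusters were then taken separately.

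In NK cells (NK and Cycling_NK clusters) the beta chain gave no called difference between treatments. Il2rb measured 1356, 1381, 1227, 1274 and 1369 CPM in PBS mice, 1154, 1214, 1425 and 1119.6 CPM in mono-IL10 mice 1, 2, 4 and 5, and 1218, 1259.8, 1409.9, 1278 and 1459 CPM in IL10/2-Trikine mice. Mono-IL10 mouse 3 had fewer than 10 NK cells and was not in this fit. The groups overlapped throughout, and the log2 changes were 0.003 ± 0.12 against PBS and 0.05 ± 0.13 against mono-IL10 (edgeR adjusted p = 0.995 and 0.909).

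Il2rg, the signalling partner, was lower in the NK cells that carried a mouse call with Trikine, without passing the test. PBS mice had 383, 391, 381, 334 and 382.5 CPM, mono-IL10 mice 378, 444, 334 and 224 CPM, and Trikine mice 299, 343, 225, 299.6 and 254 CPM. Only Trikine mouse 2 lay above the lowest PBS mouse. In the edgeR quasi-likelihood test the log2 change against PBS was −0.37 ± 0.19 (adjusted p = 0.289) and that against mono-IL10 was −0.32 (adjusted p = 0.354). Within the NK cluster alone all 5 Trikine mice (322, 322, 205, 284.5 and 270.4 CPM) lay below all 5 PBS mice (383, 391, 389, 334 and 374 CPM), with a log2 change of −0.37 and an adjusted p of 0.388 in the same edgeR test. Over all cells of that cluster, with or without a mouse call, the libraries were closer, at 303 CPM with Trikine (95% Poisson interval 270.4 to 339, 372 cells), 321 CPM with PBS (278 to 369, 170 cells) and 345 CPM with mono-IL10 (314 to 377, 253 cells).

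Il2ra was low in NK cells, at 20.1 to 88.5 CPM in PBS mice, 19.1 to 116 CPM in mono-IL10 mice and 21.6 to 149.8 CPM in Trikine mice, and its ranges overlapped. Of the 3 chains tested in NK cells 0 passed in any comparison, beside 4.42% of all genes for Trikine against PBS, 2.38% for Trikine against mono-IL10 and 0.297% for mono-IL10 against PBS. In the NK cluster alone 0 of 3 passed as well, where 2.53%, 0.817% and 0.245% of genes passed. At an unadjusted p under 0.05 the edgeR test of NK cells gave 421, 379 and 273 genes in these comparisons, and 0 of the 3 chains, and DESeq2 also called 0 of the chains.

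In T cells, here all annotated clusters other than NK and Cycling_NK, the beta chain was higher with IL10/2-Trikine. Their levels were 647, 875, 536, 621 and 643 CPM in PBS mice, 494, 575, 569, 511 and 523 CPM in mono-IL10 mice and 813, 984, 955, 898 and 852 CPM in IL10/2-Trikine mice. Every Trikine mouse exceeded every mono-IL10 mouse and 4 of 5 PBS mice, and again PBS mouse 2 was the high one. Il2rb was 1.65-fold higher than with mono-IL10 (log2 change 0.72 ± 0.12, edgeR adjusted p = 0.000266) and 1.37-fold higher than with PBS (0.46 ± 0.12, edgeR adjusted p = 0.0206). The call against PBS was lost when PBS mouse 1, 3 or 4 or Trikine mouse 2 was left out and when cells of Cycling_T with more NK than T marker UMIs were moved to NK cells (0.34, edgeR adjusted p = 0.176), whereas that against mono-IL10 was kept (0.61, adjusted p = 0.00597). The T cells defined here included the Cycling_T cells with more NK than T marker UMIs. Those numbered 128 with Trikine, 16 with PBS and 18 with mono-IL10 over all annotated cells. Different clusters filled the T cells of each library. Over all annotated cells Cycling_T held 174 with Trikine, 55 with PBS and 120 with mono-IL10, while naive_CD8T held 2, 38 and 160, naive_CD4T 1, 30 and 42 and naive_T 1, 5 and 19, and the part of this make-up was not tested in T cells alone.

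Il2ra in T cells spread widely within each group. It measured 450.1, 236, 755, 431 and 860.5 CPM in PBS mice, 227, 556, 302, 206 and 160.01 CPM in mono-IL10 mice and 861, 472, 590.4, 385 and 446.5 CPM in Trikine mice. Mono-IL10 mice 1, 3, 4 and 5 lay below every Trikine mouse, and mono-IL10 mouse 2 did not. The fold against mono-IL10 was 1.90 (log2 change 0.92 ± 0.31, edgeR adjusted p = 0.0485), a call lost with the hashtag number as a replicate block (0.90, edgeR adjusted p = 0.0753) and with DESeq2 (0.91, adjusted p = 0.136). It was also lost when any of mono-IL10 mice 1, 4 and 5 or Trikine mice 1, 2 and 3 was left out, with values of 0.70 to 1.02, and over all 15 left-out mice the change ran to 1.33 (without mono-IL10 mouse 2, the high one). With the NK-like cells of Cycling_T counted as NK cells the change was larger, at 1.49 (edgeR adjusted p = 0.00435). Against PBS the change was 0.09 ± 0.31 (edgeR adjusted p = 0.911), and mono-IL10 against PBS gave −0.84 ± 0.29 (adjusted p = 0.135).

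Il2rg in T cells was 234 to 352 CPM with PBS, 213 to 296 CPM with mono-IL10 and 207 to 273 CPM with Trikine, and its log2 change of −0.33 ± 0.16 against PBS did not pass (edgeR adjusted p = 0.254). Of the 3 chains tested in T cells, 1 passed against PBS beside 8.97% of all genes, 2 against mono-IL10 beside 12.3%, and 0 for mono-IL10 against PBS beside 1.72%.

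**Figure D2:**
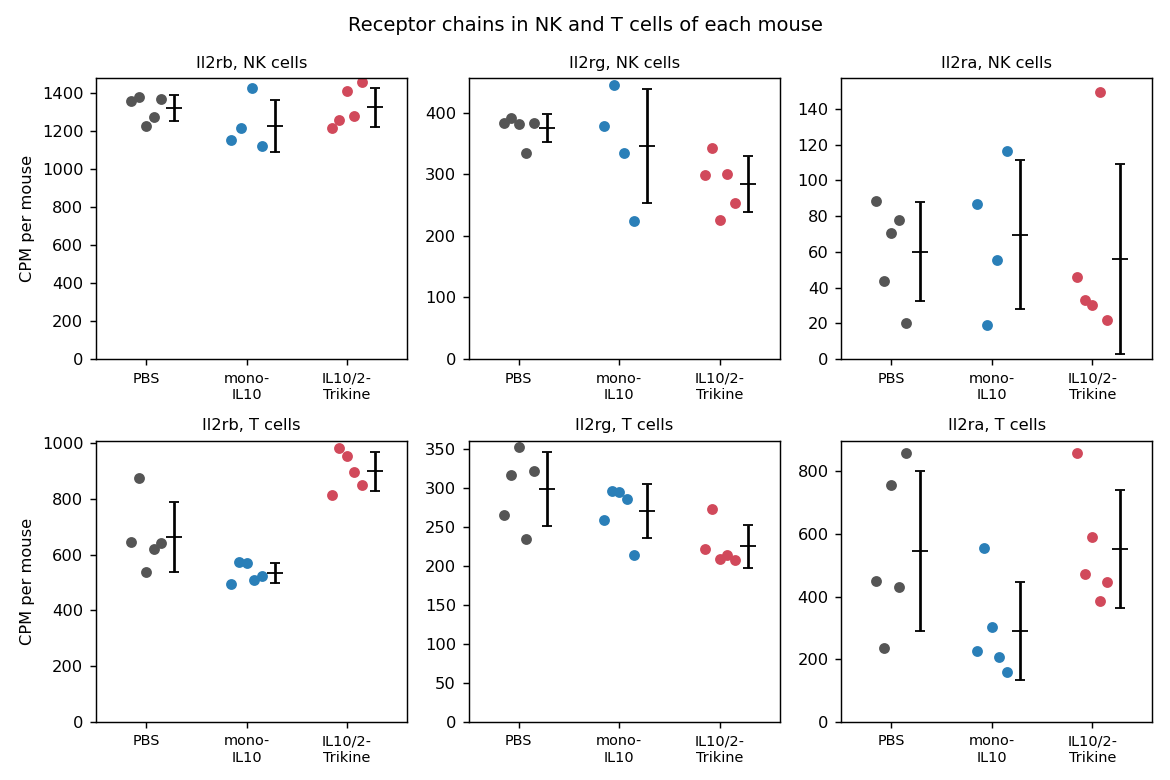
CPM of Il2rb, Il2rg and Il2ra per mouse (points) in NK cells and in T cells of the PBS, mono-IL10 and IL10/2-Trikine groups, with the mean and SD beside each group (n = 5 mice, 4 for NK cells with mono-IL10). Il2rb in T cells of the 5 Trikine mice (813 to 984 CPM) lies above all mono-IL10 mice (494 to 575 CPM), while the NK panels overlap for Il2rb. T cells here include the Cycling_T cells with more NK than T marker UMIs.

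The difference between NK and T cells of the same mouse was itself compared between groups. Log2 Il2rb in NK cells minus that in T cells was 0.55 ± 0.15 (SD, n = 5) with IL10/2-Trikine, 0.998 ± 0.20 (n = 5) with PBS and 1.20 ± 0.18 (n = 4) with mono-IL10. Trikine was lower by 0.45 than PBS (exact two-sided permutation p = 0.0159) and by 0.65 than mono-IL10 (exact p = 0.00794), and both had an adjusted p of 0.0952 over 12 such tests. These differences did not pass the correction, and both did when PBS mouse 2 was left out (adjusted p = 0.0476). The smallest p that 5 mice against 5 or against 4 can give is 0.00794. The T level in these differences includes the Cycling_T cells with more NK than T marker UMIs. Over all annotated cells those numbered 128 with Trikine, 16 with PBS and 18 with mono-IL10, at 1282, 1084 and 979.8 CPM of Il2rb.

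Within T cells, Cycling_T was the cluster in which the beta chain could be tested alone. Il2rb measured 504, 443, 583 and 475 CPM in mono-IL10 mice 1, 2, 4 and 5 against 964, 1009, 1009, 954 and 906 CPM in the 5 Trikine mice, without overlap. It was 1.91-fold higher (log2 change 0.94 ± 0.15, edgeR adjusted p = 0.000182), the 1 of 2 chains tested that passed beside 6.58% of all genes. Only PBS mice 2 and 4 had enough cells, at 1050.5 and 539 CPM, which was too few for a test. Il2rg did not move with it (−0.02 ± 0.26).

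The make-up of Cycling_T differed between the libraries along with Il2rb. Cells with more UMIs of 5 NK marker genes than of 5 T marker genes made up 29.1% of Cycling_T with PBS (16 cells), 15% with mono-IL10 (18 cells) and 73.6% with IL10/2-Trikine (128 cells). Those cells had 1084, 979.8 and 1282 CPM of Il2rb in the same order. The remaining Cycling_T cells had 452 CPM (95% Poisson interval 355 to 567), 429.8 CPM (382 to 482) and 652 CPM (530 to 795). In these remaining cells Il2ra was 104, 58.1 and 173 CPM. The part of this make-up in the tested difference was not tested within the cluster.

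**Figure D3:**
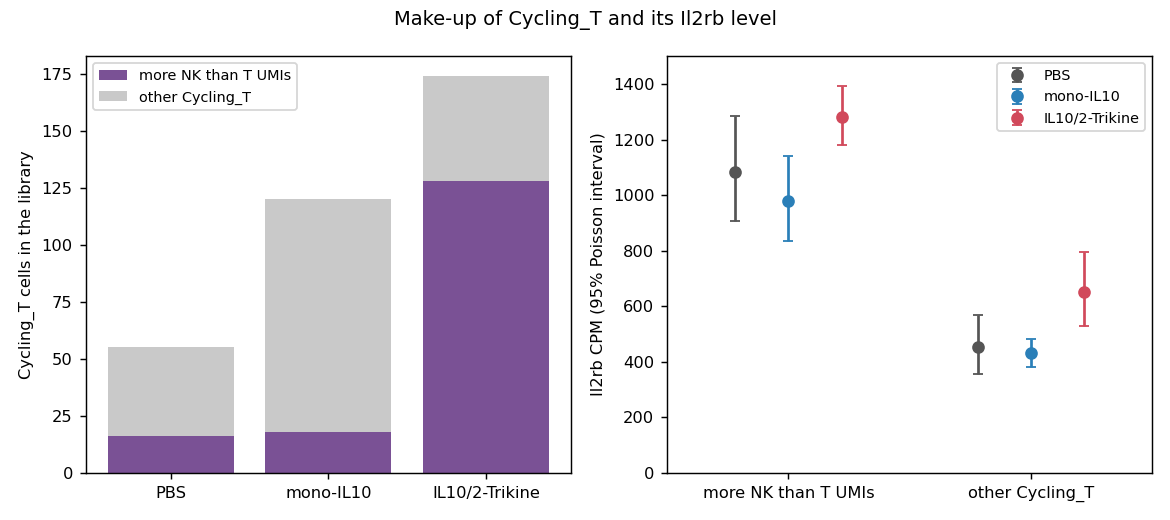
Left, number of Cycling_T cells per library, split into cells with more NK than T marker UMIs and the rest; right, Il2rb CPM of each part per library with 95% Poisson intervals. The NK-marker part holds 128 of the Trikine cells, and in the rest Il2rb is 652 CPM with Trikine against 429.8 CPM with mono-IL10.

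The part of the cluster make-up was then measured over all annotated cells. A level expected from the make-up by cluster was built from the share of UMIs of each cluster in a mouse and the level of that cluster over all annotated cells. For Il2rb it came to 1024 CPM with IL10/2-Trikine, 864 CPM with PBS and 867 CPM with mono-IL10, against observed means of 1133, 859.5 and 786 CPM. The expected level with Trikine thus differed by 0.24 on the log2 scale from PBS (exact permutation p = 0.0159, adjusted p = 0.127) and by 0.23 from mono-IL10 (exact p = 0.00794, adjusted p = 0.0952). The observed level minus the expected one differed by 0.16 (exact p = 0.0476, adjusted p = 0.127) and 0.28 (exact p = 0.00794, adjusted p = 0.0952), and 0 of these passed over 24 tests. Each cluster had the same level in every mouse. A different share of NK-like cells inside Cycling_T is therefore counted in observed minus expected and not in the expected level.

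For Il2ra the expected level and observed minus expected differed in opposite directions between Trikine and PBS. Its expected level was 212 CPM with Trikine, 388 CPM with PBS and 221 CPM with mono-IL10, and its observed mean was 299.8, 402 and 209.8 CPM. The expected level with Trikine differed by −0.90 from PBS (exact permutation p = 0.0794, adjusted p = 0.173). From mono-IL10 it differed by −0.15 (exact permutation p = 0.675, adjusted p = 0.810). Observed minus expected was 0.53 higher with Trikine than with PBS (exact permutation p = 0.0476) and 0.64 higher than with mono-IL10 (exact p = 0.0238), each with an adjusted p of 0.127. Il2rg showed observed minus expected of −0.28 against PBS (exact p = 0.0476, adjusted p = 0.127).

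Regulatory T cells, which carry most CD25, were also read on their own, a choice made after seeing the data. In Treg and Cycling_Treg together Il2ra measured 1739, 1634, 1817, 1298 and 2420.0 CPM in the 5 PBS mice, 1844, 2092, 1435, 2707 and 999.5 CPM in the 5 mono-IL10 mice and 2296, 2527 and 2167 CPM in Trikine mice 1, 2 and 5, the only ones with 3 or more such cells. The Trikine mice were within the range of mono-IL10 and 1 PBS mouse was above the lowest of them. The difference did not pass an exact two-sided permutation test (p = 0.107 against PBS, 0.268 against mono-IL10), in a design whose smallest p is 0.0179. Il2rb in the same cells was 627 ± 116 CPM with Trikine (SD, n = 3), 421 ± 91.9 CPM with PBS (n = 5) and 565 ± 61.3 CPM with mono-IL10 (n = 5), with an exact permutation p of 0.0536 for Trikine against PBS and of 0.0317 for mono-IL10 against PBS, both with an adjusted p of 0.321. Read per library in Treg alone, Il2ra was 1513, 2082 and 3165 CPM with PBS, mono-IL10 and Trikine, in act_CD4T it was 375, 275 and 627 CPM, and in Cycling_Treg it was lower with Trikine than with PBS, at 1895, 1584 and 1745 CPM (13, 6 and 13 cells), all without mouse replicates.

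The share of cells with a transcript was compared after thinning every cell to 1500 UMIs. Il2rb was detected in 69.0% ± 3.30 of T cells of Trikine mice (SD, n = 5), 56.5% ± 8.17 of T cells of PBS mice and 47.1% ± 3.76 of T cells of mono-IL10 mice. All 5 Trikine mice (64.7% to 73.7%) were above all PBS mice (47.1% to 63.0%) and all mono-IL10 mice (40.7% to 50%), each with an exact two-sided permutation p of 0.00794 and an adjusted p of 0.0952 over 24 tests. By cluster, over all annotated cells of a library, Cycling_T had the gene in 77.6% of cells with Trikine and 43.6% with PBS, and 73.6% of its Trikine cells had more NK than T marker UMIs. The shares with Trikine and PBS were 58.3% and 49.02% in Treg, 79.2% and 80.8% in gdT/NKT and 42.9% and 53.6% in act_CD4T. In NK cells the share was 81.2%, 79.2% and 78.2%. Tumor epithelial-like cells, which should lack the gene, showed it in 0.360%, 0.112% and 0.126% of cells after the same thinning, from medians of 8487, 19648 and 28516 UMIs with Trikine, PBS and mono-IL10.

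Il2rg, which pairs with the beta chain, had lower shares with Trikine in cells that carried a mouse call, which did not pass the correction. It was found in 33.0% ± 4.05 of NK cells with Trikine (n = 5), 43.2% ± 5.80 with PBS (n = 5) and 42.4% ± 8.49 with mono-IL10 (n = 4), an exact permutation p of 0.0159 against PBS with an adjusted p of 0.127. In T cells the shares were 29.5%, 39.4% and 32.2% (exact permutation p = 0.0238 against PBS, adjusted p = 0.143), and in tumor epithelial-like cells 0.467%, 0.431% and 0.464%. Transcripts of both Il2rb and Il2rg, the signalling pair, were found in 27.9% ± 2.11 of NK cells with Trikine against 38.4% ± 7.64 with PBS and 33.8% ± 5.72 with mono-IL10 (exact permutation p = 0.0159 against PBS, adjusted p = 0.179), and in 21.4%, 22.2% and 14.4% of T cells. The lower values with Trikine than with PBS were not seen over all cells of the NK cluster, with or without a mouse call, where Il2rg was in 35.5% of 372 cells with Trikine and 32.4% of 170 cells with PBS, and the pair in 29.03% and 28.2%. Il2ra with Il2rb was found in 17.3%, 15.5% and 9.14% of T cells. Il15ra was found in 1.34% to 4.12% of NK cells and 1.503% to 2.68% of T cells. Of 78 values compared by exact permutation tests for shares, pairs, NK minus T differences and cluster make-up, 0 passed the adjusted threshold, nor did any of 12 in regulatory T cells. For Il2rb shares in T cells, groups without overlap reached the smallest exact permutation p of 0.00794 and still an adjusted p of 0.0952. These tests therefore had little room to pass, and the count of 0 does not show equal levels.

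The IL-10 receptor chains, to which the other end of the Trikine binds, were sparse in these cells. Il10ra had a mean of 14.5 ± 14.6 CPM with Trikine, 23.1 ± 13.0 CPM with PBS and 24.1 ± 9.19 CPM with mono-IL10 (n = 5 each) in T and NK cells, below the count filter, and fell in macrophage-like cells of Trikine mice by 0.23 on the log2 scale against PBS (edgeR adjusted p = 0.0188).

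Macrophage or monocyte-like cells (7296 with PBS, 5565 with mono-IL10, 5162 with Trikine) gave low but replicated counts of the chains. Most Il2ra and Il2rb UMIs of this class lay in cells that also carried UMIs of T, NK or Treg marker genes, as given below. The clusters joined in this class were filled differently by the libraries. A cluster led by Ccl12 held 746, 378 and 1612 cells with PBS, mono-IL10 and Trikine, and a cluster led by Dcstamp 1234, 280 and 224. The part of this make-up in the class values was not tested. Il2ra measured 5.78, 4.76, 7.56, 2.80 and 6.55 CPM in PBS mice, 4.90, 4.51, 1.66, 1.51 and 2.04 CPM in mono-IL10 mice and 21.1, 13.4, 22.5, 18.4 and 13.8 CPM in Trikine mice, and Trikine overlapped neither group. It was 3.20-fold higher than with PBS (log2 change 1.68 ± 0.27, edgeR adjusted p = 0.000242) and 5.36-fold higher than with mono-IL10 (2.42 ± 0.29, edgeR adjusted p = 6.77e-05). Il2rb measured 10.7, 8.31, 14.6, 11.7 and 9.40 CPM in PBS mice, 10.1, 11.9, 3.90, 7.10 and 7.23 CPM in mono-IL10 mice and 33.7, 17.8, 23.5, 19.6 and 25.4 CPM in Trikine mice, again without overlap. The fold was 2.32 against PBS (1.21 ± 0.22, edgeR adjusted p = 0.000785) and 2.90 against mono-IL10 (1.54 ± 0.23, edgeR adjusted p = 0.000395).

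Il2rg in the macrophage-like cells differed in another comparison, rising with mono-IL10 over PBS by 1.35-fold (log2 change 0.43 ± 0.11, edgeR adjusted p = 0.00659), a call that was lost with totals thinned to the lowest (0.30, edgeR adjusted p = 0.168). PBS mice had 66.8, 63.6, 75.0, 87.0 and 68.2 CPM and mono-IL10 mice 100.9, 96.8, 70.6, 96.2 and 93.1 CPM, so that mono-IL10 mouse 3 was the 1 that lay within the PBS range. Il15ra, at 1.84 to 5.82 CPM, passed in 0 comparisons. Of the 4 chains 2 passed for Trikine against PBS beside 17.5% of all genes, 2 for Trikine against mono-IL10 beside 10.6%, and 1 for mono-IL10 against PBS beside 26.9%.

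Transcripts of other cell types differed in the macrophage-like cells along with Il2ra and Il2rb. Summed per mouse, 5 T cell markers had 46.1 to 70.5 CPM with Trikine, 20.7 to 34.6 CPM with PBS and 13.0 to 31.7 CPM with mono-IL10, and 5 Treg markers had 70.8 to 118, 33.1 to 56.2 and 19.2 to 45.4 CPM. The 3 NK-defining markers summed to 4.29 to 10.8, 2.65 to 5.04 and 0.604 to 2.16 CPM in the same order. Tumor epithelial markers had 44.1 to 89.4 CPM with Trikine, 39.7 to 67.3 CPM with PBS and 23.7 to 40.6 CPM with mono-IL10, and mature dendritic markers 12.0 to 28.4, 27.1 to 64.8 and 11.9 to 19.8 CPM. The part of these transcripts in the result was not tested. Cells with at least 1 UMI of 13 T, NK or Treg marker genes were 14.96% with Trikine, 13.5% with PBS and 13.0% with mono-IL10. They held 94.8%, 90.2% and 84.0% of the Il2ra UMIs and 85.0%, 90.3% and 88.2% of the Il2rb UMIs, but 28.5%, 21.9% and 18.03% of those of Il2rg. The class held 16352915 UMIs in 5162 cells with Trikine, 44184139 in 7296 with PBS and 39730573 in 5565 with mono-IL10. A cell with fewer UMIs is less likely to show a marker UMI. The shares were thus read at unlike depth, and the cells without marker UMIs were screened least strictly with Trikine. In cells without any of these UMIs Il2rb was 3.98 ± 2.83 CPM with Trikine, 1.47 ± 1.08 CPM with PBS and 1.25 ± 0.86 CPM with mono-IL10 (n = 5 each), from 60, 44 and 38 UMIs in all. The log2 changes there were 1.83 ± 0.53 and 1.90 ± 0.54 (edgeR adjusted p = 0.0213 and 0.0324), though Trikine mouse 3 had 0 Il2rb UMIs in such cells. Il2ra had 14, 23 and 20 UMIs in them and was below the filter, and Il2rg with mono-IL10 passed the test in them (0.48, edgeR adjusted p = 0.00281). The split was added after seeing the data. Tumor epithelial-like cells had 2.61, 1.002 and 0.814 CPM of Il2rb with Trikine, PBS and mono-IL10.

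**Figure D4:**
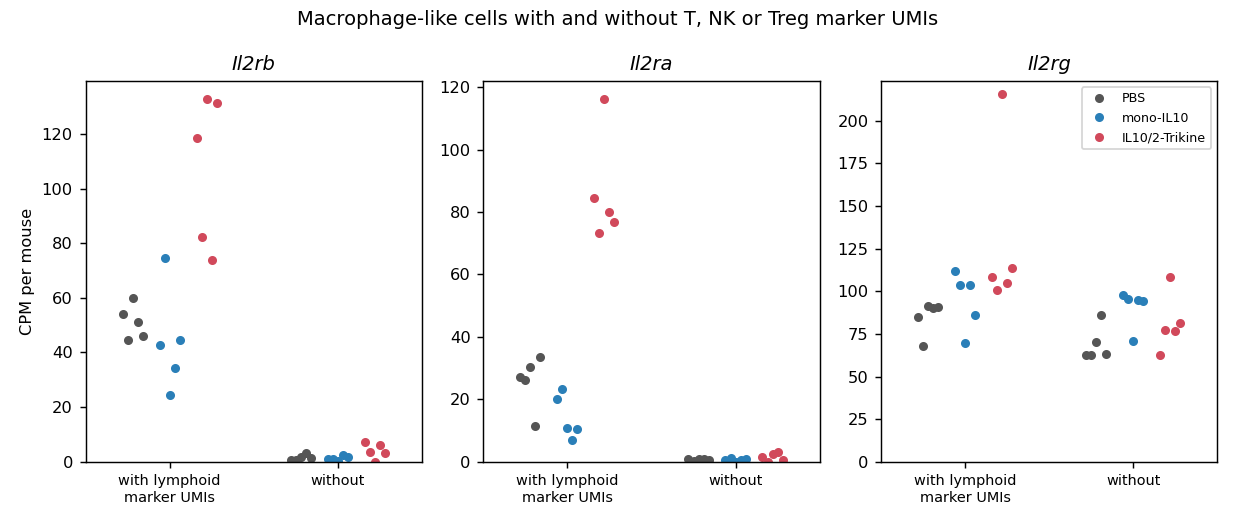
CPM per mouse of Il2rb, Il2ra and Il2rg in macrophage-like cells with at least 1 UMI of 13 T, NK or Treg marker genes and in those without, for the 3 treatments (n = 5 mice each; y axes start at 0). Most Il2rb and Il2ra UMIs lie in the cells with marker UMIs, where Trikine mice reach 73.8 to 133 CPM of Il2rb against 44.5 to 60.02 CPM with PBS and 24.5 to 74.5 CPM with mono-IL10, while Il2rg is found in both.

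Dendritic-like cells, here conventional and mature types in 1 class, showed no called difference in the chains. Conventional and mature cells numbered 205 and 185 with PBS, 80 and 105 with mono-IL10 and 58 and 143 with Trikine. With PBS these types had 10.9 and 134 CPM of Il2ra, so the class values also depend on their mix. Il15ra was 27.5 to 40.1 CPM in PBS mice, 9.62 to 74.5 CPM in mono-IL10 mice and 0 to 66.3 CPM in Trikine mice. Il2ra was 62.3 to 92.2, 14.4 to 134 and 44.2 to 105 CPM, and Il2rg was 41.9 to 65.9, 33.6 to 83.8 and 44.2 to 137 CPM. All 3 ranges overlapped between treatments for each chain. Of the 3 chains tested 0 passed in the edgeR test, beside 0.506% of all genes for Trikine against PBS, 0% for Trikine against mono-IL10 (473 genes at an unadjusted p under 0.05) and 0.487% for mono-IL10 against PBS. DESeq2 called 25 genes in the comparison in which edgeR called 0, and 0 of the 3 chains. Il2rb was below the filter there.

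**Figure D5:**
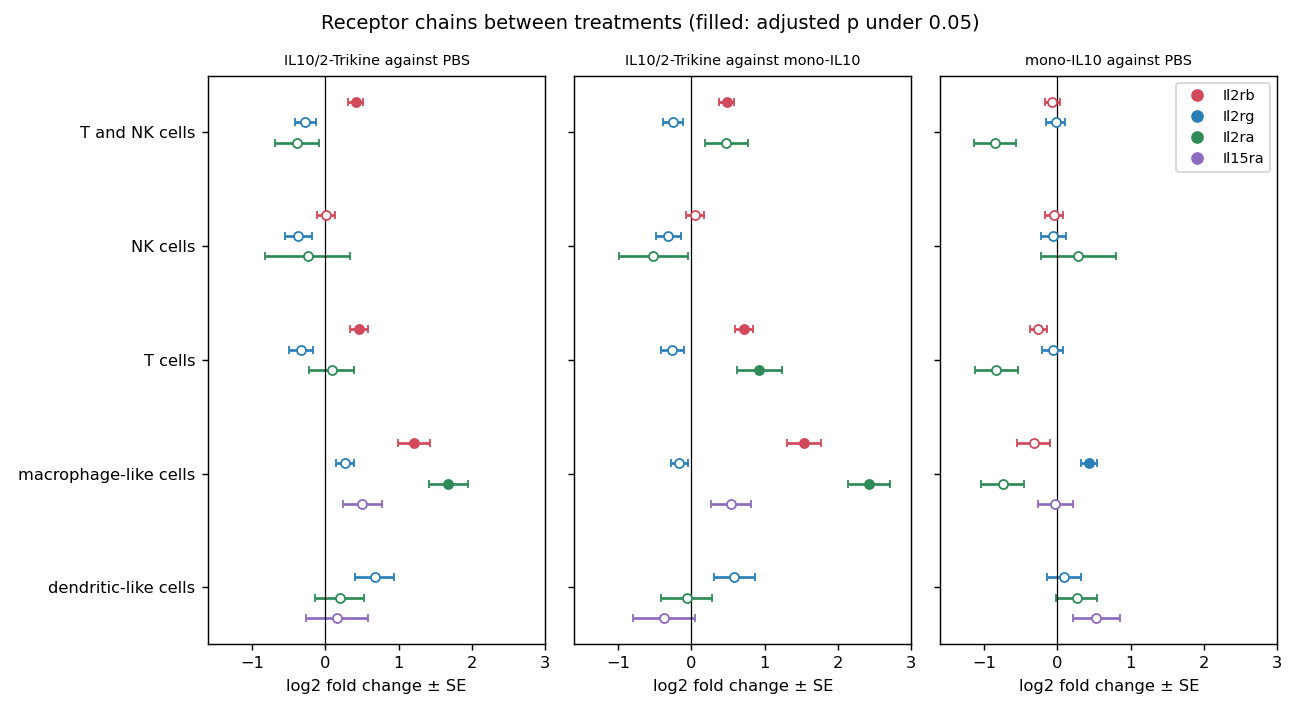
Log2 fold change (x axis, ± SE) of the 4 receptor chains in 5 cell populations (y axis) for the 3 treatment comparisons, with filled points for an edgeR adjusted p under 0.05. Il2rb is filled for Trikine against both groups in T cells and in macrophage-like cells and open in NK cells, and Il2ra reaches 2.42 in macrophage-like cells against mono-IL10.

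The 38 other genes of the pathway, in 7 lists, were read beside the chains. Partners of the gamma chain fell in T and NK cells with Trikine: 2 of 3 tested were lower than with PBS (9.49% of all genes called), Il7r, the IL-7 receptor alpha chain that naive and memory T cells carry, by 1.40 on the log2 scale (edgeR adjusted p = 0.000685) and Il21r, the IL-21 receptor, by 0.59 (adjusted p = 0.0221). Both were also lower than with mono-IL10 (−1.20 and −0.70, edgeR adjusted p = 0.00151 and 0.00289). In T cells alone Il7r fell by 0.88 against PBS and by 0.78 against mono-IL10 (edgeR adjusted p = 0.0248 and 0.0298), and both calls were lost with the NK-like cells of Cycling_T counted as NK cells (−0.43 and −0.32, adjusted p = 0.424 and 0.519).

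Stat5a and Stat5b were the signal transducers called in T and NK cells. Of 5 kinases and STATs tested in these cells, Stat5a and Stat5b, which relay the IL-2 signal, fell with Trikine against PBS by 0.80 and 0.86 (edgeR adjusted p = 0.0316 and 0.0358), and Stat5b fell by 1.06 against mono-IL10 (adjusted p = 0.00384). Of 4 feedback genes Socs1, an inhibitor of JAK kinases, fell by 0.86 against PBS (edgeR adjusted p = 0.0151). Cish, a feedback inhibitor induced by STAT5, fell with mono-IL10 by 0.87 against PBS (adjusted p = 0.0207), and in T cells was higher with Trikine than with mono-IL10 by 0.73 (adjusted p = 0.0484). The 4 regulators of Il2rb tested (Tbx21, Eomes, Runx3 and Ets1) gave 0 calls in T and NK cells, with log2 changes of 0.03 to 0.56 against PBS.

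Targets of the pathway split by direction. Of 10 tested in T and NK cells for Trikine against PBS, 3 rose and 2 fell, again beside 9.49% of all genes. The cytotoxic genes Gzma (3.13), Prf1 (2.31) and Gzmb (1.36) rose, and the Treg-associated receptors Tnfrsf4 (OX40, −1.42) and Tnfrsf18 (GITR, −1.02) fell, with edgeR adjusted p from 5.80e-07 to 0.00367. In NK cells, where Il2rb was not called, Gzma (2.604), Prf1 (1.52) and Gzmb (1.20) rose against PBS too (edgeR adjusted p = 0.00143, 0.00696 and 0.00903). Mono-IL10 also raised Gzma (1.52), Prf1 (1.56) and Gzmb (1.26) over PBS in T and NK cells, a comparison in which Il2rb stood at −0.07. The groups share the PBS mice, so these values are given side by side only. Of the ligands, Il2 had group means of 0 to 3.02 CPM in NK and T cells, and Il15 in macrophage-like cells was 9.37 ± 3.25 CPM with Trikine, 13.0 ± 2.68 CPM with PBS and 7.12 ± 2.37 CPM with mono-IL10 (n = 5), lower with mono-IL10 than with PBS by 0.79 (edgeR adjusted p = 0.00639).

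T cells had pathway calls of which several were lost or gained when part of Cycling_T was moved. With Trikine against PBS, Gzma (2.88), Prf1 (2.94) and Gzmb (1.31) rose and Stat5a (−0.91), Stat5b (−0.92), Tnfrsf4 (−0.89) and Tnfrsf18 (−0.86) fell, and against mono-IL10 Gzma (1.08) and Prf1 (1.16) rose and Stat5b (−1.10) fell. With mono-IL10 against PBS, Gzma (1.79), Prf1 (1.78) and Gzmb (1.29) rose and Cish (−1.09) fell. With the NK-like cells of Cycling_T counted as NK cells, the edgeR calls against PBS were lost for Stat5a (−0.68, adjusted p = 0.259), Stat5b (−0.68, 0.234), Tnfrsf4 (−0.35, 0.543) and Tnfrsf18 (−0.49, 0.185), while Gzma (3.09), Prf1 (2.39) and Gzmb (1.39) were still called. Those against mono-IL10 were lost for Gzma (0.43, edgeR adjusted p = 0.567), Prf1 (0.49, 0.589) and Stat5b (−0.78, 0.0930), and that of Prf1 between mono-IL10 and PBS was lost as well (1.90, 0.0732). Calls against mono-IL10 were gained in T cells for Pim1 (0.78, edgeR adjusted p = 0.0183) and Ccnd2 (0.92, 0.0147) and in NK cells for Gzma (1.34, 0.0419) and Il21r (−0.79, 0.0184), and Prf1 gained one in NK cells between mono-IL10 and PBS (1.40, 0.0383). In T and NK cells together Gzma (1.61) was higher and Tnfrsf4 (−1.05) and Tnfrsf18 (−0.58) were lower with Trikine than with mono-IL10. Cycling_T had more Prf1 (1.36) and less Ctla4 (−0.84) in that comparison, and the NK cluster alone had more Gzma (2.48), Gzmb (1.37) and Prf1 (1.51) with Trikine than with PBS.

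In macrophage-like cells 12 of 31 pathway genes tested rose and 3 fell with Trikine against PBS, where 17.5% of all genes were called. Il4ra, which pairs with the gamma chain, rose by 1.11 on the log2 scale (edgeR adjusted p = 4.44e-07) and Jak3, the kinase bound to the gamma chain, by 0.87 (adjusted p = 2.01e-05). With mono-IL10 against PBS these rose by 1.27 and 0.92 (edgeR adjusted p = 2.93e-08 and 1.26e-06), the comparison in which Il2rg itself was called. Also higher with Trikine than with PBS were Stat3 (0.29), Myc (0.55), Runx3 (0.26) and Ets1 (0.31), and lower were Il7r (−0.83) and Cish (−0.75). Lymphoid genes of the target list rose there too, Gzma (2.45), Gzmb (2.27), Prf1 (2.22), Tnfrsf4 (0.95), Tnfrsf18 (0.87) and Ctla4 (1.13), beside the T and Treg markers given for these cells.

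Against mono-IL10, 6 of 31 pathway genes tested rose and 5 fell in macrophage-like cells of Trikine mice, where 10.6% of all genes were called. Higher were Myc (0.55), Gzma (1.87), Gzmb (1.93), Tnfrsf4 (1.60), Tnfrsf18 (1.61) and Ctla4 (1.55). Lower were Il7r (−0.75), Il10ra (−0.34), Socs3 (−0.59), Mcl1 (−0.32) and Runx3 (−0.29). The NK marker genes Klrb1c (2.15) and Klre1 (2.27) were higher in the same cells. Mono-IL10 against PBS, where 26.9% of all genes were called, raised Stat3 (0.48), Socs3 (0.58), Mcl1 (0.31), Pim1 (0.25), Runx3 (0.55) and Ets1 (0.26) in macrophage-like cells. It lowered Cish (−0.50), Ccnd2 (−0.61) and Tnfrsf18 (−0.74), and Klrb1c (−1.40) and Klre1 (−1.29) were lower there too. Dendritic-like cells had 3 such calls, Ccnd2 (0.79) and Gzmb (2.96) with Trikine and Jak3 (1.74) with mono-IL10, each against PBS, of 26 genes tested and beside 0.506% and 0.487% of all genes called.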

How the data were processed

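Single-cell 5′ RNA libraries of CD45+ tumor cells and their hashtag libraries were measured for 3 treatments. The authors deposited raw UMI counts per barcode from Cell Ranger 9.0.1 on GRCm39, and a cell table with cluster names, hashtag calls and UMI counts; the labels name Seurat 5.1.0 and DESeq2 1.46.0. A further 7858 cells in that table, of a treatment not analysed here, were set aside. Libraries held 44412 (PBS), 30528 (mono-IL10) and 55504 (IL10/2-Trikine) barcodes with 515236552, 458860129 and 364814102 UMIs.

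Cells were joined by barcode, and UMI counts were summed per mouse, taken from the deposited hashtag call for annotated cells and from a repeat of it for other barcodes; the repeat gave the same call, a mouse or none, in 93.2% to 98.8% of annotated cells and another mouse in 0. Mice with at least 10 cells entered, and each comparison needed 3 mice a group. edgeR 4.0.16 (R 4.3.3; TMM, filterByExpr, quasi-likelihood test, the 3 groups in 1 fit without a block) gave p-values adjusted by Benjamini-Hochberg over all genes, with a threshold of 0.05. Exact two-sided permutation tests used SciPy 1.17.1 on shares or on log2(CPM + 10). Barcodes outside the annotation with at least 1000 genes and at most 10% mitochondrial UMIs were clustered (2000 variable genes without the 4 chains, 40 components, 60 k-means clusters; scikit-learn 1.9.0) and named "-like" from markers with a score of at least 0.25; clusters with a lower score, or whose marker scores or leading genes also fitted another lineage, stayed unnamed. The deposited annotation lists no hashtag doublets; other barcodes that the repeat called doublets (8.50% to 12.2% of all barcodes passing the filters) were left out, and no doublet caller based on RNA was run. Tested on simulated data for NK cells, Trikine against PBS (2311 genes), the fit recovered 51% of genes changed 2-fold and 86% of those changed 4-fold, with 4 false calls. Smaller changes were not simulated, so these values do not give the power for changes as small as those of the chains in NK cells.

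The members, lists and tests were chosen with earlier results of these data known. Named were the 4 chains, every listed pathway gene past the threshold in a comparison described, and the 5 genes most correlated with each chain. Alternatives were DESeq2 1.42.0, RLE size factors, no low-count filter, thinned totals, at least 20 cells per mouse, other clusterings, thinning and pseudocounts, a replicate block and each mouse left out. After seeing the data were added the macrophage-like cells without lymphoid UMIs, the joined Treg clusters, and the block and left-out mice for single clusters.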

Additional observations from a re-analysis of the deposited data

Results flagged for a closer look

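Of 60 groups of mice examined, 6 held a mouse apart from the others by Dixon's criterion, where chance gives about 1 in 20. Il2ra in NK cells was 149.8 CPM in Trikine mouse 4, against 21.6 to 46.0 CPM in the other Trikine mice. Il2rb in T and NK cells was low in mono-IL10 mouse 1, at 716 CPM. Il2rg was low in NK cells of PBS mouse 4 (334 CPM), high in T cells of Trikine mouse 2 (273 CPM), high in macrophage-like cells of Trikine mouse 3 (127 CPM) and low in those of mono-IL10 mouse 3 (70.6 CPM).

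The log2 difference of Il2rb between NK and T cells of the same mouse differed between groups, by −0.45 for Trikine against PBS (exact permutation p = 0.0159) and by −0.65 for Trikine against mono-IL10 (exact permutation p = 0.00794). Both had an adjusted p of 0.0952. The 5 Trikine mice ran from 0.35 to 0.77, PBS mouse 2 was at 0.65 within that range, and all 4 mono-IL10 mice were at 1.06 or more. The T level in these differences includes the NK-like cells of Cycling_T, 128 with Trikine, 16 with PBS and 18 with mono-IL10.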

How the results depend on the processing

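Of 59 member values tested by edgeR, 11 passed the threshold, beside 0% to 26.9% of all genes depending on the comparison. The populations overlap, since T and NK cells contain the T cells, the NK cells and the single clusters, so these calls are not independent. The calls of Il2rb in T and NK cells (both Trikine comparisons), in T cells and Cycling_T against mono-IL10, and of Il2ra and Il2rb in macrophage-like cells with Trikine were kept whichever mouse was left out, and 0 calls reversed. For the chains, alternatives other than left-out mice kept the call of 410 values, gained 9 and lost 9, and left-out mice gave 1993, 14 and 10. For the pathway genes named as called, 500 values kept the call and 61 lost it, and left-out mice gave 1149 and 127.

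On the log2 scale, Il2ra in T cells, Trikine against mono-IL10, lost its call with DESeq2 (0.91), totals thinned (0.75), the replicate block (0.90, edgeR adjusted p = 0.0753) and at least 20 cells (1.01), rose to 1.49 with NK-like Cycling_T cells moved (adjusted p = 0.00435), and ran from 0.70 to 1.33 over left-out mice. Il2rb in T cells, Trikine against PBS, lost it with no filter (0.34), thinned totals (0.47), at least 20 cells (0.44) and NK-like Cycling_T cells moved (0.34), with 0.38 to 0.57 over left-out mice. Mono-IL10 against PBS gained a call for Il2ra with no filter in T and NK cells (−0.78) and T cells (−0.77), with −1.15 to −0.68 and −1.25 to −0.67 over left-out mice (gained without PBS mouse 2 or mono-IL10 mouse 2). In macrophage-like cells Il2ra gained it with DESeq2 (−0.78), no filter (−0.74) and 30 components with 40 clusters (−0.82), with −1.07 to −0.57 over left-out mice, and Il2rg lost it with thinned totals (0.30). Without thinning of cells, shares passed for Il15ra in NK cells (−3.12 points) and Il2rg in NK cells (−20.7 points) against mono-IL10, and for Il2rg in T cells against PBS (−18.2) and mono-IL10 (−20.8). Without PBS mouse 2 exact tests of Il2rb passed, with left-out ranges of −0.53 to −0.40 and −0.71 to −0.57 (NK minus T), 0.21 to 0.27 (expected, Trikine against mono-IL10) and 0.12 to 0.21 and 0.25 to 0.31 (observed minus expected), as did expected levels of Il2ra (−0.98 to −0.64) and Il15ra (−0.19 to −0.11) for mono-IL10 against PBS. The cause of these changes was not tested.

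Counts of all genes called, given in the order Trikine against PBS, Trikine against mono-IL10 and mono-IL10 against PBS, moved by over 1.5 times under some settings. With totals thinned they went from 436, 406 and 51 to 246, 195 and 25 in T and NK cells, from 104, 56 and 7 to 46, 19 and 2 in NK cells, from 286, 391 and 55 to 64, 119 and 12 in T cells, from 2120, 1277 and 3251 to 1004, 406 and 1179 in macrophage-like cells and from 26, 0 and 25 to 4, 6 and 3 in dendritic-like cells. With NK-like Cycling_T cells moved, T cells gave 87, 167 and 31 and NK cells 92, 159 and 12. Without a filter, mono-IL10 against PBS gave 156, 46 and 135 in T and NK, NK and T cells, and dendritic-like cells gave 191, 118 and 124. Dendritic-like cells gave 66 and 25 with DESeq2 in the Trikine comparisons, 105 with at least 20 cells (Trikine against PBS), 9 with the block (mono-IL10 against PBS) and 0, 3 and 14 with the other clustering. With at least 20 cells NK cells gave 41 and T cells 160 for Trikine against PBS, and NK cells gave 2 between mono-IL10 and PBS.

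The hashtag numbers did not pair mice, since over 30 same-numbered pairs the correlation of deviations ran from −0.165 to 0.173, with 3 above 0.1. Of 59 values refitted with the hashtag number as a replicate block, 58 kept their call, 10 passing against 11 without it, and Cycling_T gave 68 called genes against 112. The design limits precision: a share of cells with a chain rests on few cells per mouse, and Il15ra was under the filter in every T and NK population.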

Other observations

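Most UMIs of the alpha and beta chains lay outside the annotated cells. Among barcodes kept after the quality filter, annotated cells held 7376 Il2rb UMIs (18.2%), T-, NK- and Treg-like cells 3.72%, other named cell types 6.47%, and 25556 barcodes in clusters left without a name 71.6%. For Il2ra the annotated cells held 10.5% and the unnamed clusters 74.4%, for Il2rg 6.80% and 54.1%, and for Il15ra 2.37% and 34.3%. T-, NK- and Treg-like cells held 1.37% of Il15ra and the other named cell types 62.0%. Among the latter, tumor epithelial-like cells held 558, 575 and 735 Il15ra UMIs with Trikine, PBS and mono-IL10, at 2.62, 2.28 and 2.78 CPM.

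Some of these unnamed clusters were led by receptor genes. In a cluster led by Gzmc, Xcl1 and Il2rb the beta chain was 746, 762 and 746 CPM with PBS, mono-IL10 and Trikine (166, 200 and 531 cells), and in a cluster led by Gzma, Prf1 and Klra8 it was 690, 736 and 673 CPM (80, 125 and 801 cells). A cluster led by Il2rb, Xcl1 and Gzma had 430, 431 and 414 CPM of it. Others were higher in CPM with Trikine, at 106, 117 and 206 CPM in a cluster led by Gzmc, Gzma and Nkg7 (207, 142 and 841 cells). The median total per cell in that cluster was 17776, 28059.5 and 8341 UMIs. Its cells with a UMI of Il2rb were 67.6%, 71.8% and 69.0%. The part of the cell totals in the CPM difference was not tested. A cluster led by S100a9 and S100a8 had 337, 274 and 481 CPM of Il2rb (181, 116 and 82 cells). A cluster led by Il2ra, Tnfrsf4, Icos and Ctla4 had 519, 535 and 651 CPM of Il2ra (530, 340 and 626 cells). Within the 10 clusters that made up the macrophage-like cells, Il2ra was higher with Trikine than with PBS in 10, Il2rb in 9, Il2rg in 7 and Il15ra in 6. These clusters hold cells of the same mice and are not replicates. Over the class with Trikine, cells with T, NK or Treg marker UMIs held 94.8% of the Il2ra UMIs and 85.0% of the Il2rb UMIs.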
